A study of Mus musculus with 12 samples.

Results

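Rows 13717, 13718, 13724, 13725, 13726, 13727 and 13728 of a single-cell count table of mouse liver are described here, 7 of its 18326 features. They belong to 13 adjacent rows, 13717 to 13729, whose summed share equalled the mitochondrial percent that the authors deposited for each cell in all 31003 cells. The 7 were proposed as the rows of the complex I subunits because their place and abundance among the 13 resemble the gene order of the mitochondrial genome. The files pair no row with a gene name, so this could not be checked, and each row is called by its number. The reference annotation lists 13 protein-coding mitochondrial genes, 7 of them complex I subunits, which matches the number of rows and says nothing about which row is which. Abundance entered the choice of the rows, so their levels are given as a description.

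Complex I, the NADH dehydrogenase of the respiratory chain, passes electrons from NADH to ubiquinone and pumps protons across the inner mitochondrial membrane. Its core membrane subunits are encoded in the mitochondrial genome, and its many other subunits in the nucleus. The mitochondrial genome is transcribed from both strands as long precursors that are cut into single transcripts, and its genes have no introns. Hepatocytes are rich in mitochondria, which carry out fatty acid oxidation and part of the urea cycle and of glucose production.

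The livers came from wild-type (WT) mice of the strain 129S6/SvEv, female or male, at zeitgeber time 10 (ZT10) or 22 (ZT22), hours counted from lights on. Each of the 4 groups of sex and time had 3 libraries, and the ages of the mice and the number of mice per library are not given in the sources used here. Cells were released by collagenase perfusion, spun to enrich hepatocytes, frozen, thawed and sequenced with 10x Genomics Chromium v3, in which a unique molecular identifier (UMI) marks each captured transcript. Where nothing says that libraries came from separate mice, p-values measure only the spread between these libraries. Without gene names, the cells could not be checked against liver markers.

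Libraries held between 2284202 and 14654630 UMIs from 494 to 3949 cells, with medians of 2213 to 3734 UMIs per cell. The 13 mitochondrial rows took between 7.01% and 17.9% of a library's UMIs. Male ZT22 replicate 2 stood apart in the deposited intronic fraction, with a median of 0.510 against 0.211 to 0.319 in the other libraries, and female ZT10 replicate 1 had the lowest mitochondrial share. Across libraries, 120 cell barcodes occurred more than once, in 240 cells or 0.774% of all. Doublets were not called.

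The 7 rows together held 2.98% ± 0.596 of all UMIs (mean ± SD, n = 12 libraries) and 21.5% ± 1.43 of the mitochondrial UMIs. Their share of all UMIs was lowest in female ZT10 replicate 1 (1.597%) and highest in male ZT22 replicate 2 (3.68%), with a median of 3.03%. By group, the summed share of all UMIs was 2.66% ± 0.978 in females at ZT10, 3.12% ± 0.521 in females at ZT22, 2.84% ± 0.343 in males at ZT10 and 3.30% ± 0.484 in males at ZT22 (SD, n = 3 each). The 4 groups overlapped. Within the mitochondrial UMIs the summed share was steadier. It ran from 19.7% in female ZT10 replicate 2 to 24.5% in male ZT10 replicate 1, a highest-to-lowest ratio of 1.25, where the share of all UMIs had a ratio of 2.31.

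The rows spanned a wide range of levels, here captured UMIs with no correction for transcript length. As shares of all UMIs over 12 libraries, row 13726 held 0.891% ± 0.196 (SD). Row 13718 held 0.807% ± 0.177 and row 13717 held 0.668% ± 0.132. A lower level was shared by row 13724 at 0.221% ± 0.0575, row 13727 at 0.215% ± 0.0479 and row 13725 at 0.161% ± 0.0595. Row 13728 was far below them at 0.0157% ± 0.00297.

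The order was much the same in each library. Row 13717 ranked 3 and row 13728 last in 12 of 12 libraries. Row 13726 exceeded row 13718 in 9 of 12, with row 13718 first in female ZT10 replicate 3 and in male ZT10 replicates 1 and 2. Row 13724 exceeded row 13727 in 7 of 12, and their mean ratio of 1.04 ± 0.205 (SD) left those neighbours within their spread. Row 13725 was below row 13727 in 12 of 12 libraries, with ratios of row 13727 to row 13725 from 1.08 to 2.08.

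Row 13728 had 15541 UMIs in all, with as few as 339 in male ZT10 replicate 2 and as many as 2418 in male ZT10 replicate 1. Its share of all UMIs in the shallower of these libraries was 0.0148%, with an exact 95% binomial interval of 0.0133% to 0.0165% that covers counting error only. It was detected in 29.1% of cells, against 81.3% for row 13725 and 98.6% for row 13726. After each cell was thinned to 1000 UMIs, leaving out 265 shallower cells, row 13728 was detected in 12% ± 2.16 of cells (SD, n = 12 libraries), row 13725 in 62.1% ± 10.98 and row 13726 in 93.8% ± 2.50. Free RNA in the droplets can add UMIs to any cell, and its part in these detection rates was not tested.

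**Figure D1:**
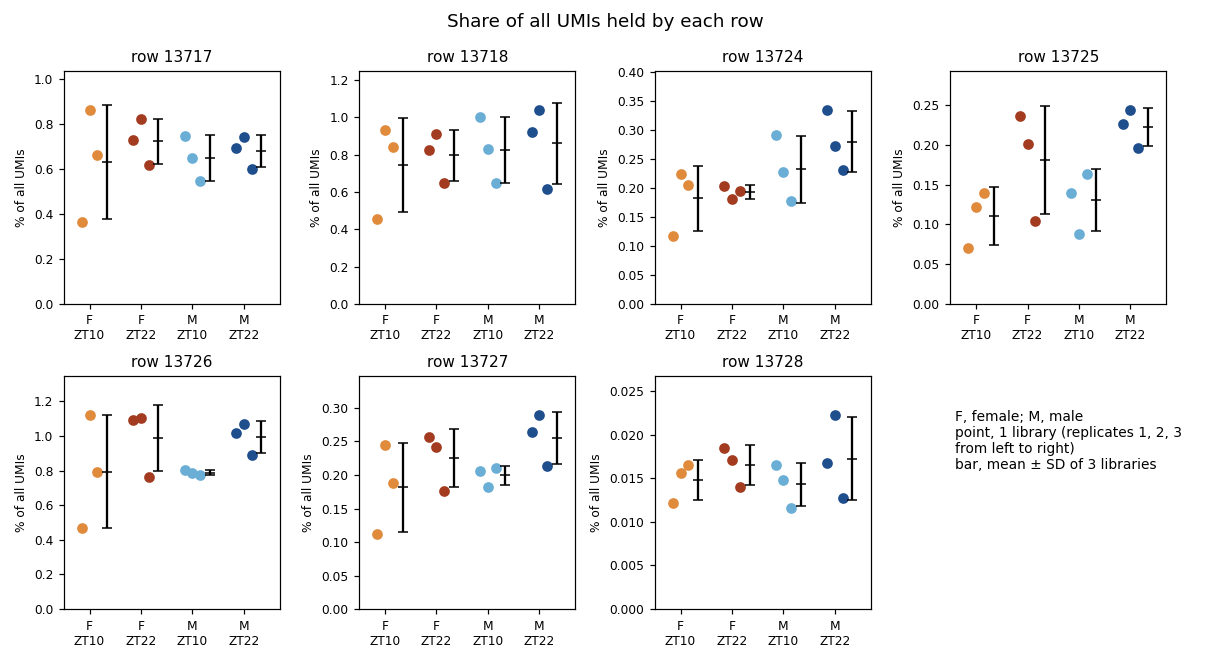
Percent of all UMIs held by each of the 7 rows (vertical axis, from 0) in the 12 libraries by sex and time; points are libraries and bars are the mean ± SD of 3. Row 13725 is between 0.197% and 0.244% in 5 of the 6 ZT22 libraries and at 0.105% in female ZT22 replicate 3.

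Within the mitochondrial UMIs, rows differed in how much their share varied between libraries. Row 13726 was the steadiest, at 6.38% ± 0.181 (SD, n = 12) with a lowest value of 6.096% and a highest of 6.67%. Its coefficient of variation was 2.83%. Row 13725 was the most variable by that measure, 25.4%, with shares from 0.679% in female ZT10 replicate 2 to 1.46% in male ZT22 replicate 1. Row 13724 followed at 21.7% and row 13728 at 20.2%, row 13718 at 15.2%, row 13717 at 9.06% and row 13727 at 7.76%. Row 13728 was highest in female ZT10 replicate 1, at 0.174% of the mitochondrial UMIs, and between 0.0872% and 0.132% in the other 11 libraries. Male ZT22 replicate 2, the library with the high intronic fraction, had 0.132%.

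**Figure D2:**
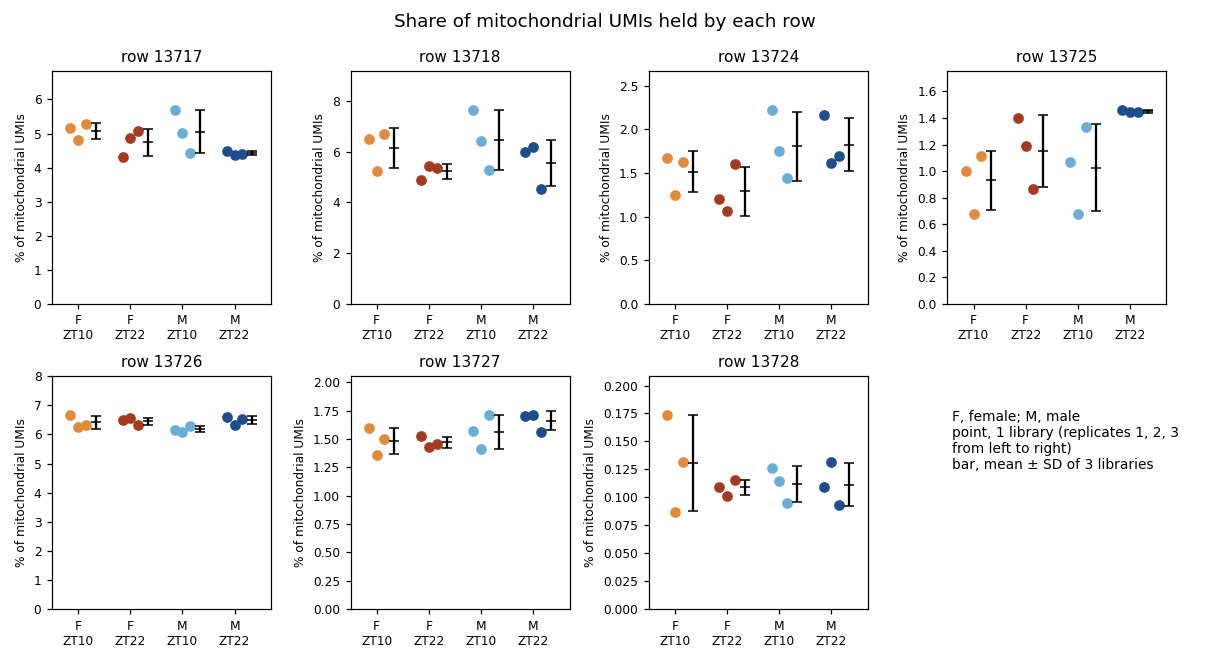
Percent of the mitochondrial UMIs held by each of the 7 rows (vertical axis, from 0) in the 12 libraries by sex and time; points are libraries and bars are the mean ± SD of 3. Row 13726 stays between 6.096% and 6.67%, while row 13725 runs from 0.679% to 1.46%.

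The first comparison asked whether the rows differed between ZT22 and ZT10. None of the 7 rows passed the test on shares of all UMIs (edgeR's quasi-likelihood test, Benjamini-Hochberg adjusted over 12505 features), where 7.82% of all features tested were called. At an unadjusted threshold of 0.05, 1 of the 7 passed, row 13725, against 19.7% of all features. DESeq2, after adjustment, called row 13725 and none of the other 6, against 8.23% of all features. All 7 fitted log2 changes were above 0, from 0.16 for row 13718 to 0.83 for row 13725, as were those of the 6 remaining mitochondrial rows, at 0.24 to 0.57. The median over all features was 0.0035. With library totals in place of TMM factors, the calls over all features moved from 537 higher and 441 lower to 341 higher and 469 lower at ZT22 (6.48% of features), and the 7 rows stayed above 0, at 0.08 to 0.74, with none called.

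Row 13725 came nearest to the threshold. At ZT10 it held 0.0702%, 0.122% and 0.140% of all UMIs in female replicates 1, 2 and 3. Male replicates 1, 2 and 3 at ZT10 had 0.140%, 0.0878% and 0.163%. At ZT22 the female replicates had 0.237%, 0.2005% and 0.105%, and the male replicates 0.226%, 0.244% and 0.197%. Males did not overlap between the times, and among females only female ZT22 replicate 3 lay within the ZT10 range. This was not particular to row 13725. The 13 mitochondrial rows summed ran from 12.3% to 13.1% in males at ZT10 and from 13.6% to 16.9% at ZT22. Males did not overlap for members 13726 and 13727 either. How many of all features separate in this way was not counted. The log2 change of row 13725 was 0.83 ± 0.27 (SE), with an unadjusted p of 0.00865 and an adjusted p of 0.0838 in edgeR's quasi-likelihood test.

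The call on row 13725 turned on 1 library and on the cells used. Without female ZT22 replicate 3, its log2 change was 0.99 and its adjusted p 0.0334 in edgeR, where 5.46% of all features were called. With all libraries, DESeq2 gave 0.84 and an adjusted p of 0.0189. In cells with an intronic fraction under 0.3, edgeR gave 0.99 and an adjusted p of 0.0187, with 10.1% of all features called. Row 13728 was then called too, at 0.50 with an adjusted p of 0.0445 in edgeR. This limit fell unevenly on the libraries. It left out most cells of male ZT22 replicate 2 and of male ZT10 replicate 2, whose median fractions were 0.510 and 0.319. The part of this in the calls was not tested. The cell names start with a number, and what it marks is not given in the sources used here. Each such number held libraries of 1 time, so any difference that it marks and time cannot be told apart. Female ZT22 replicate 3 was the sole library of its number, as was male ZT10 replicate 2 of its own.

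As a share of the mitochondrial UMIs, row 13725 was 0.978% ± 0.256 at ZT10 and 1.301% ± 0.238 at ZT22 (SD, n = 6 each). The difference had p = 0.0584 in an exact two-sided permutation test over 924 assignments of the libraries, and an adjusted p of 0.217 over 26 tests of 13 rows and the 2 contrasts of time and sex. Row 13717 was lower at ZT22, 4.58% ± 0.310 against 5.07% ± 0.430, with an exact p of 0.0519 and the same adjusted p. No member passed for time. The smallest p that this design allows is 0.00216, which for 1 row alone among 26 tests adjusts to 0.0563, so no single row could pass by itself for time or sex.

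The second comparison set females against males. None of the 7 rows was called for its share of all UMIs in edgeR, against 5.26% of all features, and none passed at an unadjusted 0.05 (18.4% of all features) or was called by DESeq2 (5.89%). The fitted log2 changes ran from -0.40 ± 0.23 (SE) for row 13724, with an adjusted p of 0.363, to 0.08 for row 13717. Row 13724 held 0.187% ± 0.0370 of all UMIs in females and 0.256% ± 0.0556 in males (SD, n = 6 each). Its values in females at ZT10 were 0.117%, 0.223% and 0.205% in replicates 1, 2 and 3, and in males at ZT10 0.292%, 0.227% and 0.177%. At ZT22 they were 0.203%, 0.180% and 0.195% in females and 0.335%, 0.273% and 0.230% in males. The sexes overlapped at ZT10 and not at ZT22. How many of all features separate in this way was not counted. As shares of the mitochondrial UMIs, the sexes at ZT22 did not overlap for row 13724, for members 13725 and 13727, or for row 13721, which is not a member.

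Among the mitochondrial UMIs, row 13724 took 1.40% ± 0.262 in females and 1.82% ± 0.314 in males (SD, n = 6 each), with an exact permutation p of 0.0390 and an adjusted p of 0.217. Row 13727 took 1.48% ± 0.0799 and 1.61% ± 0.120, with an exact p of 0.0498 and the same adjusted p. Neither passed the correction. Within the leading numbers of the cell names that held both sexes, row 13724 was lower in females in 3 of 4, at -0.767, -0.970 and -0.584 percentage points (female minus male), and higher in the other, at 0.185. Row 13727 was lower in females in 4 of 4 numbers, at -0.0898 to -0.208 percentage points, and row 13725 in 4 of 4, at -0.0619 to -0.254 percentage points. With libraries of the same time and replicate number set against each other, row 13725 had the lower value in the female of 6 of 6 pairs, with a mean difference of -0.197 percentage points, an exact sign-flip permutation p of 0.0312, the smallest that 6 pairs allow, and an adjusted p of 0.135 over 13 rows. Row 13725 did not pass the correction. With this smallest p no row could pass over 13 rows by itself, so the paired test could not decide for row 13725 alone. Mitochondrial rows 13722 and 13723, which are not members, were higher in the female of 6 of 6 pairs. Their mean differences were 1.09 and 0.941 percentage points, with the same p and adjusted p in this test.

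The time effects of the sexes were compared through their interaction. It was called for none of the 7 rows and for 0% of all features in edgeR, where 739 features (5.91%) passed an unadjusted 0.05, none of them among the 7. DESeq2 called 10 features (0.0952%), again none of the 7. The fitted interaction of the rows lay between -0.11 and 0.23 on the log2 scale, with standard errors of 0.35 to 0.54. Library totals in place of TMM factors moved the median interaction of all features from -0.01 to -0.11, with no feature called.

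**Figure D3:**
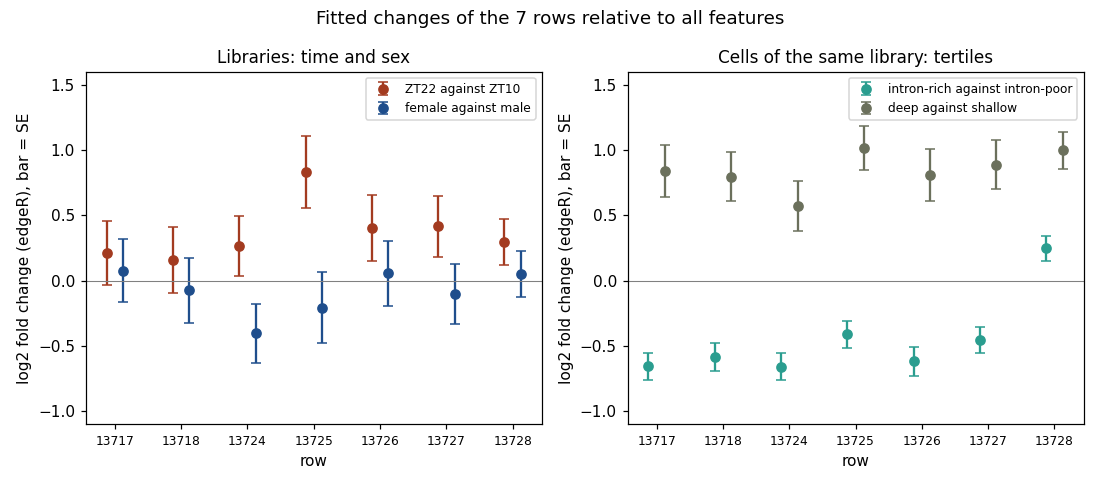
Log2 fold changes of the 7 rows relative to all features from edgeR, with bars of 1 standard error; left, ZT22 against ZT10 and females against males over 12 libraries, and right, the highest against the lowest tertile of cells of the same library by intronic fraction and by UMIs per cell. Row 13725 has the highest change with time, 0.83, and row 13728 is alone above 0 for the intronic fraction, at 0.25.

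Cells of the same library were then compared by the fraction of their signal assigned to introns, which the authors deposited for each cell. Nuclear transcripts that are not yet spliced carry introns and mitochondrial transcripts do not. The denominator of the fraction is not given in the sources used here. If it counts mitochondrial UMIs, a share of all UMIs and the fraction are tied by their arithmetic, while the division of the mitochondrial UMIs among the 13 rows is not. The upper tertile, 1 in 3 cells of each library, had a median intronic fraction of 0.375 ± 0.0899 and the lower tertile 0.174 ± 0.0530 (SD, n = 12 libraries).

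As shares of all UMIs, 6 of the 7 rows were lower and row 13728 was higher in the intron-rich cells. All 7 passed the test in edgeR with the library as a block. Each of the 6 had exceptions, with a higher share in the intron-rich cells of 1 to 3 of 12 libraries. Male ZT10 replicate 1 was an exception for all 6. The background was broad, since 77.3% of the 9680 features tested were called, 37.4% higher and 39.8% lower in the intron-rich cells. Log2 changes of the 6 lower rows ran from -0.66 for rows 13717 and 13724 to -0.41 for row 13725. The 6 remaining mitochondrial rows were lower too, by -0.47 to -0.68. Row 13728 was higher by 0.25 ± 0.10 (SE), with an adjusted p of 0.0205 in edgeR.

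The scaling shifted all of these values. With library totals in place of TMM factors, the median log2 change of all features moved from -0.04 to 0.26, and the calls from 3622 higher and 3857 lower to 4839 higher and 2222 lower (72.9% of features). Relative to that median each row stayed on its side. Row 13728 was then at 0.55, and rows 13725 and 13727 were no longer called, at -0.10 and -0.15 with adjusted p-values of 0.2501 and 0.0844 in edgeR. The median mitochondrial percent of the cells was 12.2% ± 3.80 in the intron-poor and 8.99% ± 3.62 in the intron-rich tertile (SD, n = 12), and lower in the intron-rich tertile in 9 of 12 libraries. The main population of cells was 75.9% ± 8.74 of the intron-poor and 90.3% ± 10.7 of the intron-rich tertile (SD). It was higher in the intron-rich tertile in 11 of 12 libraries. The edgeR comparison by intronic fraction was not run in the main population alone, so the part of this make-up was not tested.

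Row 13728 had the clearest pattern within the mitochondrial UMIs. In the intron-poor tertile it held from 0.0566% to 0.137% of them, with a median library at 0.0821%. In the intron-rich tertile it held from 0.115% to 0.247%, with a median library at 0.154%. It was higher in the intron-rich cells of 12 of 12 libraries, by 0.0708 ± 0.0196 percentage points (SD), and by at least 0.0458 in male ZT22 replicate 2. The exact two-sided sign-flip permutation test over 12 libraries gave p = 0.000488, the smallest that its 4096 sign patterns allow, and an adjusted p of 0.00254 over 26 tests of 13 rows and the 2 cell contrasts.

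The share of row 13728 among the mitochondrial UMIs was higher in each further class of intronic fraction. With the cells of each library in 5 equal classes, or quintiles, it held 0.0825%, 0.0921%, 0.109%, 0.138% and 0.174% of the mitochondrial UMIs from the lowest to the highest quintile (mean of 12 libraries). Its share of all UMIs did not follow this order throughout, at 0.0111%, 0.0143%, 0.0169%, 0.0193% and 0.0166% in the same quintiles. By tertiles, its share of all UMIs was 0.0124% ± 0.00415 in the intron-poor and 0.0177% ± 0.00300 in the intron-rich tertile, higher in 11 of 12 libraries. The exception was male ZT22 replicate 2, at 0.0241% and 0.0201%.

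Rows 13727 and 13725 took larger shares of the mitochondrial UMIs in intron-rich cells as well. Row 13727 went from 1.45% ± 0.119 to 1.64% ± 0.144 (SD, n = 12) and was higher in 12 of 12 libraries, by 0.0673 to 0.327 percentage points. Row 13725 went from 1.07% ± 0.281 to 1.24% ± 0.305, higher in 12 of 12, by 0.0516 to 0.494 percentage points. Both had an exact permutation p of 0.000488 and an adjusted p of 0.00254. Male ZT22 replicate 3 had the highest difference for both rows.

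Row 13718 was higher in 10 of 12 libraries, 6.002% against 5.80%, with an adjusted p of 0.0190 in the exact permutation test, and row 13717 lower in 8 of 12, 4.77% against 4.85%, with an adjusted p of 0.0390. Both differed by group, which was not tested. At ZT10 and ZT22, row 13718 differed by 0.0321 and 0.0324 percentage points in females and 0.388 and 0.348 in males. Row 13717 differed by -0.198 and -0.0731 percentage points in females and -0.0843 and 0.0247 in males. Row 13717 missed the threshold with cells split at the median in place of tertiles and without any 1 of 7 libraries, which were the 6 female libraries and male ZT10 replicate 2, at adjusted p-values of 0.0598 to 0.0780. Rows 13724 and 13726 did not pass. In all, 5 of the 7 rows and 2 of the 6 remaining mitochondrial rows passed by intronic fraction, and 1 of the latter, row 13721, was also higher in 12 of 12 libraries, with an adjusted p of 0.00254. Row 13726 passed only without female ZT22 replicate 3, at 0.121 percentage points and an adjusted p of 0.0352.

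**Figure D4:**
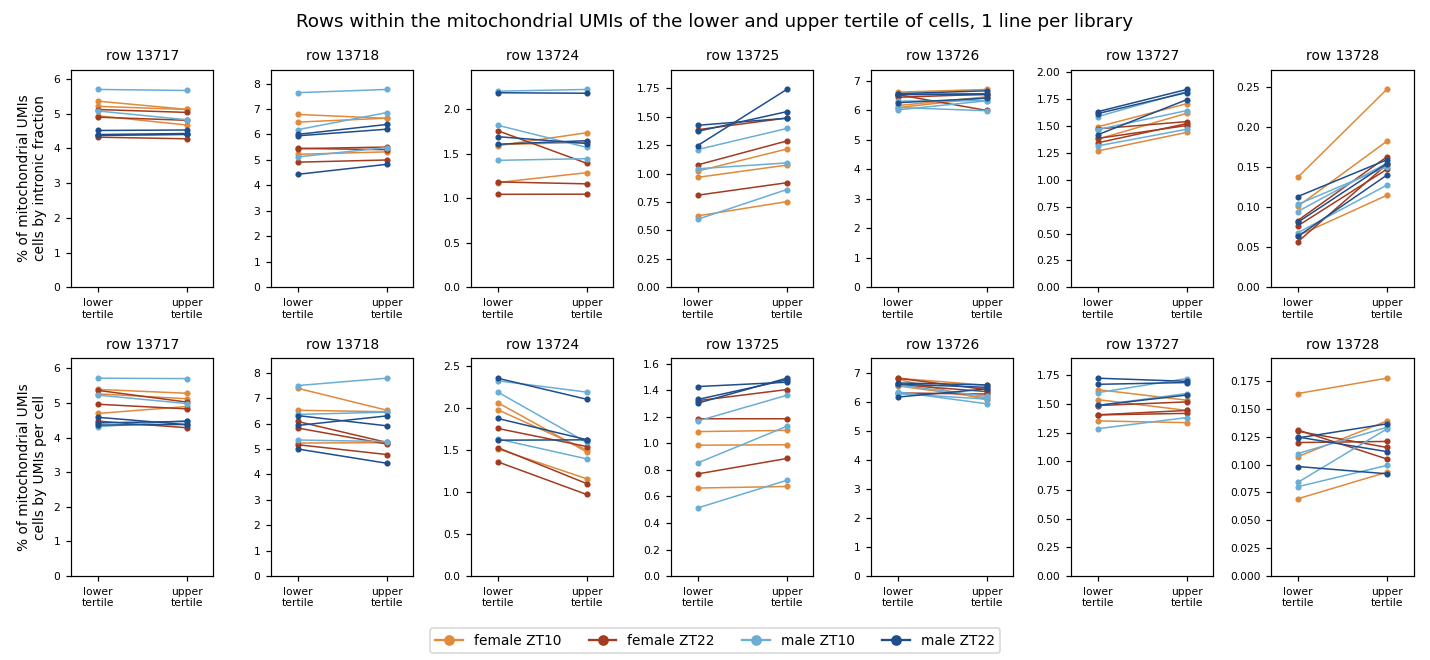
Percent of the mitochondrial UMIs held by each row (vertical axes, from 0) in the lowest and highest tertile of cells of each library, by intronic fraction (top) and by UMIs per cell (bottom); each line is 1 library, coloured by group. Lines of rows 13725, 13727 and 13728 go up in 12 of 12 libraries for the intronic fraction, and those of row 13724 go down in 11 of 12 for UMIs per cell.

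Depth and mitochondrial content differed between these tertiles, and the difference was taken again with each held. With the tertiles taken within tertiles of UMIs per cell, 5 of the 7 rows passed, as before. With tertiles taken within tertiles of the mitochondrial percent, an alternative chosen after seeing the data, row 13728 was higher by 0.0650 ± 0.0182 percentage points (SD), row 13727 by 0.185 ± 0.0667 and row 13725 by 0.166 ± 0.0972, each in 12 of 12 libraries with an adjusted p of 0.00212 in the exact permutation test. Row 13717 was lower in 11 of 12, with an adjusted p of 0.0156, and row 13718 no longer passed, at an adjusted p of 0.0804. Outside the 7, row 13721 was higher in 12 of 12 libraries, with an adjusted p of 0.00212 in the same test. Row 13729 was lower on average, with an adjusted p of 0.0363, and the other mitochondrial rows outside the 7 did not pass. In the main population of cells alone, 5 of the 7 rows passed.

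The mitochondrial percent itself went the other way for row 13728, which is given without a test. In the tertile of cells with the lowest mitochondrial percent, row 13728 held 0.172% ± 0.0360 of the mitochondrial UMIs, and in the highest tertile 0.105% ± 0.0227 (SD, n = 12), lower in 12 of 12 libraries. As a share of all UMIs it was 0.00584% in the former and 0.0241% in the latter. Row 13726 went from 0.214% to 1.502% of all UMIs and kept 6.22% and 6.41% of the mitochondrial UMIs.

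**Figure D5:**
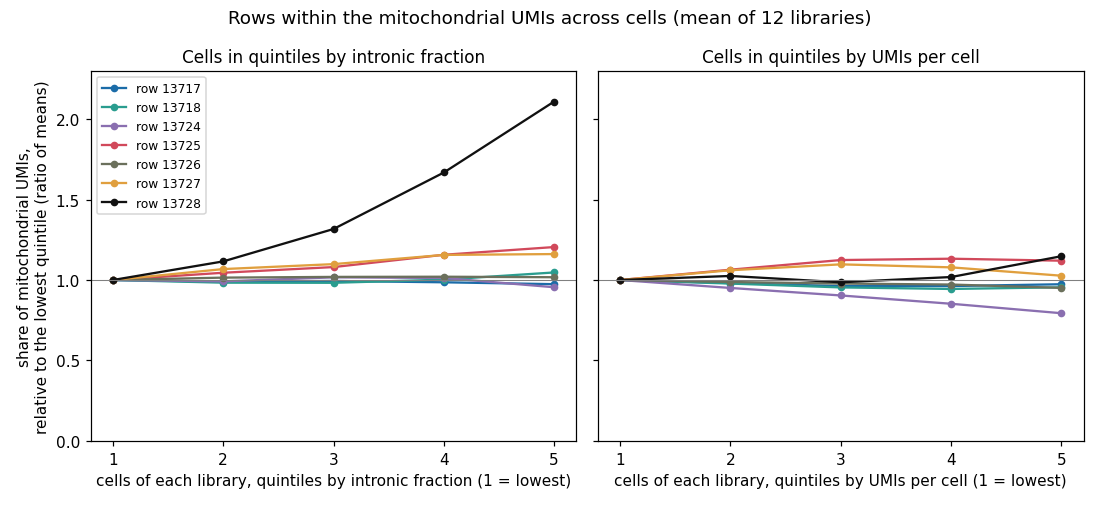
Share of the mitochondrial UMIs held by each row in quintiles of the cells of each library, divided by its value in the lowest quintile (ratio of means over 12 libraries; vertical axis from 0), by intronic fraction (left) and by UMIs per cell (right). Row 13728 climbs from 0.0825% to 0.174% over the intronic quintiles, and row 13724 declines from 1.88% to 1.49% over the depth quintiles.

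Deep cells were compared with shallow cells of the same library. The highest tertile by UMIs per cell had a median of 4849 UMIs and the lowest tertile 1874 (means of 12 libraries). The tertiles also differed in cell make-up. The main population of cells was 95.2% ± 4.31 of the deep and 68.8% ± 14.8 of the shallow tertile (SD), higher in deep cells in 12 of 12 libraries. The edgeR comparison by depth was not run in the main population alone, so the part of this make-up in its changes was not tested. All 7 rows held larger shares of all UMIs in deep cells and passed the test in edgeR, where 33.4% of the 9516 features were called, 17.2% higher in deep and 16.2% higher in shallow cells. Log2 changes ran from 0.57 for row 13724 to 1.02 for row 13725, against a median of 0.02 over all features. With library totals in place of TMM factors this median was -0.18 and the calls moved from 1637 higher and 1546 lower to 467 higher and 2588 lower (32.1% of features), and the 7 rows were still called, at 0.38 to 0.83.

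The depth of a cell includes its mitochondrial UMIs. When cells were ranked by their UMIs outside the 13 mitochondrial rows, 1 of the 7 rows was called, row 13728, at 0.48 ± 0.16 (SE) with an adjusted p of 0.0353 in edgeR, against 27.8% of all features. The 6 others lay between -0.06 for row 13724 and 0.34 for row 13725, with adjusted p-values from 0.178 to 0.846.

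Within the mitochondrial UMIs, 3 of the 7 rows passed between deep and shallow cells, against 4 of the 6 remaining mitochondrial rows. Row 13724 held from 1.36% to 2.35% of them in the shallow tertile, with a median library at 1.82%, and from 0.970% to 2.19% in the deep tertile, with a median library at 1.52%. It was lower in the deep cells of 11 of 12 libraries, by -0.327 ± 0.181 percentage points (SD, deep minus shallow), with an exact permutation p of 0.000977 and an adjusted p of 0.00317. The exception was male ZT22 replicate 2, at 1.62% in both tertiles.

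Row 13725 was higher in deep cells in 11 of 12 libraries, 1.16% ± 0.293 against 1.05% ± 0.295, with the same adjusted p. The difference was 0.106 ± 0.0962 percentage points (SD, deep minus shallow) and was near 0 in females at ZT10. Its group means at ZT10 and ZT22 were 0.00801 and 0.0667 in females, and 0.226 and 0.123 in males. Row 13726 was lower in 11 of 12, 6.31% ± 0.214 against 6.56% ± 0.220, with an adjusted p of 0.0173 in the exact permutation test. Row 13728 went from 0.112% to 0.121%, higher in 8 of 12 libraries, with an adjusted p of 0.219. It passed in the main population (adjusted p = 0.00282), with depth counted outside the mitochondrial rows (0.00181) and with the mitochondrial percent held (0.00282), all in the exact permutation test. Row 13718 passed only without male ZT22 replicate 2, at -0.309 percentage points and an adjusted p of 0.0423.

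The cells were also grouped by clustering on the features outside the 13 mitochondrial rows. These clusters have no names, because no marker could be read from numbered rows. The 7 rows together took 4.13% ± 0.618 of all UMIs in cluster 2 (8092 cells) and 1.303% ± 0.718 in cluster 3 (6518 cells), as means ± SD over 12 libraries. Their share of the mitochondrial UMIs was 21.0% ± 1.45 and 20.9% ± 1.55 in the same clusters. Row 13728 held 0.0712% ± 0.0226 of the mitochondrial UMIs in cluster 1 (3809 cells) and 0.192% ± 0.0508 in cluster 4 (2750 cells, 10 libraries). Both clusters had low median intronic fractions, 0.164 and 0.162, and differed in their median mitochondrial percent, 14.0% and 3.86%.

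Between cells of a library, the share of row 13728 among the mitochondrial UMIs also varied most beyond counting among the 7. The ratio of its variance to that expected from counting alone had a median of 1.82 over the 12 libraries, with a range of 1.41 to 2.25. The medians of the 6 other members were 1.16 to 1.47. Those of the 6 remaining mitochondrial rows ran from 1.21 to 2.89, and row 13719 at 2.89 was above row 13728.

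Across libraries, the rows most like the 7 were mitochondrial. Among 7366 features with a mean of at least 10 counts per 1e6 UMIs (CPM), the Pearson correlation of log2(CPM + 1) with that of the 7 rows summed was highest for 5 of the 6 remaining mitochondrial rows, at 0.902 to 0.927, and the sixth, row 13721, ranked 18 at 0.672. The 2 most alike rows outside the 13 were row 12678 at 0.718 and row 10031 at 0.717. These correlations over 12 libraries share the library totals as their denominator and are given as a description.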

How the data were processed

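The authors deposited raw UMI counts per numbered feature and cell with metadata that hold, per the file headers, UMIs per cell, an intronic fraction (0 to 1) and a mitochondrial percent. The submitters' processing notes name Cell Ranger 6.1.2, Seurat and the mouse build mm10, with no role; cell filters are not given in the sources used here. The deposited mitochondrial percent equalled 13 adjacent rows in every cell. The members and lists were chosen with earlier results of these data known.

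UMIs of all 31003 deposited cells were summed per library. Shares of all UMIs were tested with edgeR 4.0.16 (quasi-likelihood, TMM, filterByExpr, 1 mean per group; for tertiles of cells, a library block). All 7 rows passed filterByExpr. Shares of the 13-row sum, which add to 100%, were tested by exact permutation over libraries. Benjamini-Hochberg adjustment was used throughout, with calls under 0.05. DESeq2 1.42.0 was an alternative. All 7 rows are named by rule, with the 2 most alike rows outside the 13. The main population (26609 cells, 85.8%) came from Leiden clustering with scanpy 1.11.5 (2000 variable features, 8 principal components, 15 neighbours, resolution 0.3). It kept 4 clusters and set apart those whose 10 leading features had a median fold above 8. Clustering settings followed an earlier look at these data.

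Replicate libraries of the same group differed by more than counting noise in all pairs (chi-square per degree of freedom of 10.2 or more). The tests were first tested on simulated data. Libraries of the 2 sexes with the same replicate number, which is not the leading number of the cell names, deviated together at ZT10 (correlations of 0.217, 0.235 and 0.365). At ZT22 they did not (0.0697, -0.173 and -0.0650). Across the times, male libraries of the same replicate number gave -0.118, 0.489 and 0.530, and female ones 0.150, 0.0318 and -0.180.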

Additional observations from a re-analysis of the deposited data

Results flagged for a closer look

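Row 13725 held 0.105% of all UMIs in female ZT22 replicate 3, against 0.197% to 0.244% in the other 5 ZT22 libraries. Its gap to the nearest of them was 0.658 of the whole range of the 6 libraries, above Dixon's 95% critical value. This was the only such library among 56 sets of values looked at, and chance alone flags about 1 in 20.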

How the results depend on the processing

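For ZT22 against ZT10, the count of called rows was 0 with all libraries, 1 with DESeq2 (8.23% of all features) and 2 in cells with an intronic fraction under 0.3 (10.1%), and 0 to 1 when each library was left out in turn. For sex and for the interaction it stayed at 0 under all alternatives run. With the replicate block, 0 rows were called for time, sex and the interaction, and row 13725 had an adjusted p of 0.115 for time. The pairing of replicate numbers changed no call, though in the paired test of sex no row could pass by itself. Ranking cells by UMIs outside the mitochondrial rows left 1 of 7 rows called between deep and shallow cells, and row 13724 was then at -0.0565, reversed from 0.57. Counts for the shares of mitochondrial UMIs were 0 for time and sex, where no single row could pass by itself (0.0563 at the smallest p with all libraries), 4 to 5 for the intronic fraction and 3 to 4 for depth under all alternatives run. The causes were not tested, other than that mitochondrial UMIs enter the depth of a cell by construction.

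Row 13728 rests on few UMIs per library, and its median count per cell was 0. Names of the rows, the denominator of the intronic fraction and any doublets limit what the values describe.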
